A study of Mus musculus with 8 samples.

Results

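The Cxcl cluster on mouse chromosome 5 is a row of 7 chemokine genes, Cxcl5, Ppbp, Pf4, Cxcl3, Cxcl15, Cxcl1 and Cxcl2, out of 21631 protein-coding genes considered. The genes were chosen by the number of listed GATA2 peaks within 100 kb of them, which was high in both cell lines, so peak counts are given as a description and were not tested. All peaks whose centre lay in the cluster or within 100 kb of either end were collected, from 90659298 to 91005938 (mm10), a stretch of 346.6 kb. This gave 8 of the 2445 peaks in 3T3-L1 cells and 6 of the 1557 peaks in C3H10T1/2 cells.

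GATA2 sites were mapped by chromatin immunoprecipitation and sequencing (ChIP-seq) in 3T3-L1, a mouse preadipocyte line, and in C3H10T1/2, a multipotent mouse fibroblast line with the capacity to become fat as well as bone, cartilage and muscle. Per the labels there were 2 GATA2 ChIP libraries and 2 input libraries without antibody for each line, all from cells at passages 4 to 6 and with no treatment named. DNA from separate immunoprecipitations was pooled before sequencing, and each line is a single established line. One peak list per line was analysed, so there is no replicate value, and the lists hold positions with no height or p-value, with the depth behind them unknown.

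CXC chemokines are small secreted proteins that steer white blood cells along a gradient. Those of this cluster act mainly on neutrophils through the receptor Cxcr2, with the exception of Pf4, and stromal cells make several of them when inflammation activates NF-kB. GATA2 is a zinc finger transcription factor that binds short sites with the core GATA and is known for holding blood and fat precursors in an immature state. Whether any of these genes was transcribed in these cells was not analysed here.

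The peaks of both lines lay outside the chemokine genes, beside Cxcl5, beyond the 3′ end of Cxcl15 and in the long interval between Cxcl15 and Cxcl1, with 1 further peak of 3T3-L1 beyond Cxcl2. No peak centre lay inside any of the 7 genes in either line. These genes are 0.949 to 8.53 kb long in a region of 346.6 kb, so a count of 0 inside them carries little weight. Over the whole lists, 37.7% of 3T3-L1 peaks and 43.8% of C3H10T1/2 peaks had their centre inside a protein-coding gene of any length. Counting the lists together, the peaks formed 10 separate sites. Both lines had 4 of these sites, 3T3-L1 alone had 4 and C3H10T1/2 alone had 2.

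**Figure D1:**
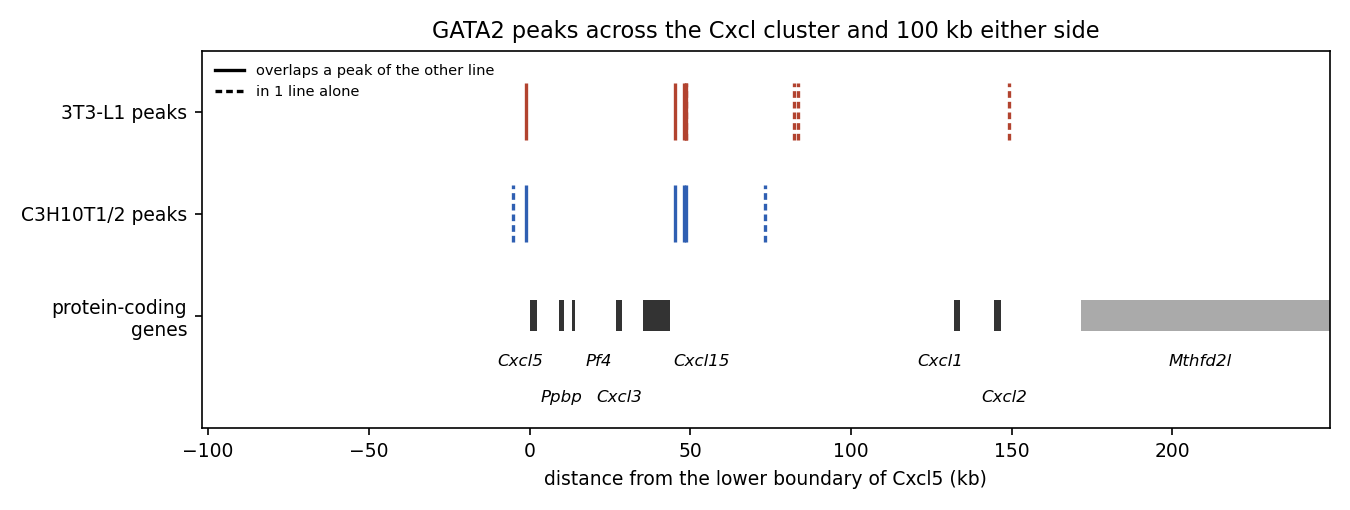
Peaks of 3T3-L1 (upper row) and C3H10T1/2 (middle row) and protein-coding genes (lower row, cluster genes dark and Mthfd2l grey) against the distance in kb from the lower boundary of Cxcl5. Solid marks are peaks that overlap a peak of the other line and broken marks are peaks of 1 line alone. The shared peaks sit just below Cxcl5 and just above Cxcl15, and the stretch from Cxcl5 to Cxcl15 is empty in both lines.

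Cxcl5 (90759298 to 90761625) encodes a neutrophil attractant that binds Cxcr2, and its lower boundary is the edge of the cluster. The 3T3-L1 peak there ran from 90758282 to 90758429 and was 148 bp wide. The C3H10T1/2 peak ran from 90758229 to 90758487, was 259 bp wide and contained the 3T3-L1 peak whole. Their centres were 2.5 bp apart, and their nearer edges lay 0.869 kb from the gene in 3T3-L1 and 0.811 kb in C3H10T1/2. C3H10T1/2 had a second peak further out, from 90754058 to 90754228, with its centre 4.21 kb from the nearest 3T3-L1 peak. The promoter table used here gives a strand for 6 of the 7 genes and has no entry for Cxcl5, so the side of Cxcl5 on which these peaks lay is given as lower and not as upstream.

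Between Cxcl5 and Cxcl15 lie Ppbp (90768518 to 90770063), Pf4 (90772435 to 90773383) and Cxcl3 (90786101 to 90788093). Ppbp and Pf4 encode chemokines that platelets and their precursors, the megakaryocytes, store in granules, and Cxcl3 encodes a close relative of Cxcl1 and Cxcl2. From the lower boundary of Cxcl5 to the higher boundary of Cxcl15 no peak was listed in either line. The nearest peaks to Ppbp and Pf4 were those at Cxcl5, 10.2 and 14.1 kb from the genes in each line. The nearest to Cxcl3 lay 16.6 kb above it in each line and belonged to the group at Cxcl15.

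Cxcl15 (90794534 to 90803067) encodes a chemokine made by lung epithelium in the mouse. Its 3′ end, the higher boundary since the gene lies on the plus strand, was followed by the densest group of the region. In 3T3-L1 the group had 4 peaks over 3.55 kb, from 90804539 to 90808091, and in C3H10T1/2 it had 3 peaks over 3.45 kb, from 90804476 to 90807928. The first pair lay 1.58 kb beyond the gene in both lines, with widths of 221 bp in 3T3-L1 and 351 bp in C3H10T1/2 and centres 2 bp apart.

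The second pair lay 2.68 kb further on in 3T3-L1 and 2.67 kb in C3H10T1/2, centre to centre, and was the one shared site of the region at which the 3T3-L1 peak was the wider. It ran from 90807091 to 90807558 in 3T3-L1, a width of 468 bp, and from 90807174 to 90807460 in C3H10T1/2, a width of 287 bp, with centres 7.5 bp apart. The third pair was narrow, with 96 bp in 3T3-L1 and 125 bp in C3H10T1/2, and overlapped by 84 bp with centres 26.5 bp apart. A last 3T3-L1 peak of 81 bp at 90808011 to 90808091 lay 82 bp past the end of the third C3H10T1/2 peak. It was therefore counted as a site of 3T3-L1 alone, although the centres were 185 bp apart.

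**Figure D2:**
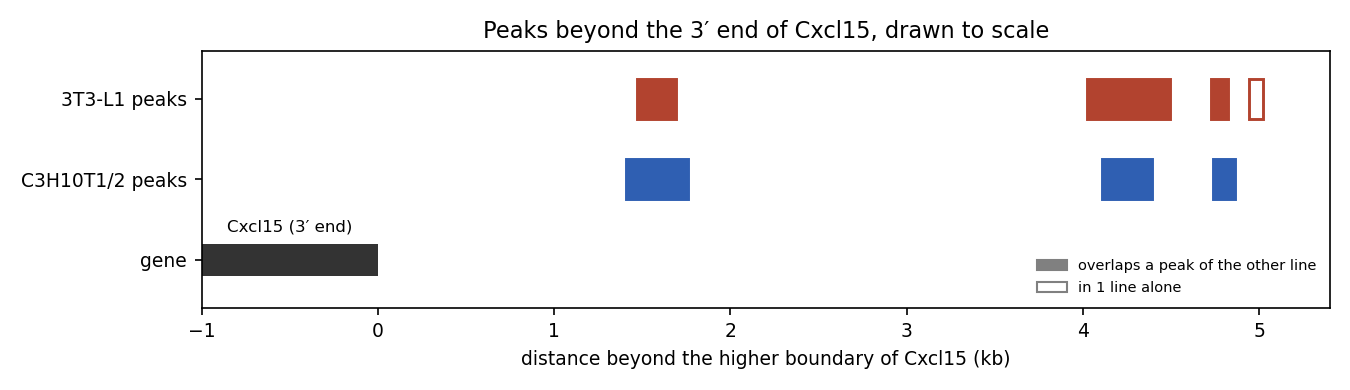
Peaks of 3T3-L1 (upper row) and C3H10T1/2 (middle row) drawn to scale against the distance in kb beyond the higher boundary of Cxcl15 (lower row). Filled boxes overlap a peak of the other line, and the open box is the 81 bp peak of 3T3-L1 alone. The 3 shared pairs lie almost centre on centre.

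Groups this tight were also listed elsewhere. In 3T3-L1, 3 other places in the genome had at least 4 peaks with centres within 4 kb. In C3H10T1/2, 12 other places had at least 3 peaks within that distance. Successive stretches that started within 100 kb of each other were counted as the same place, so a place can hold many such groups. The peak numbers used as cut-offs were those of the group at Cxcl15.

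The 88.2 kb between Cxcl15 and Cxcl1 hold no other protein-coding gene, and the remaining sites of the interval were in 1 line alone. C3H10T1/2 had a peak from 90832587 to 90832744, 29.6 kb beyond Cxcl15. 3T3-L1 had a pair from 90841401 to 90841736 and from 90842591 to 90842798, 38.5 and 39.6 kb beyond Cxcl15 and 1.13 kb from each other. The C3H10T1/2 peak lay 8.9 kb from the nearer of the pair, centre to centre. With these, the interval held 6 of the 8 peaks of 3T3-L1 and 4 of the 6 peaks of C3H10T1/2.

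Cxcl1 (90891245 to 90893121) and Cxcl2 (90903899 to 90905938) encode neutrophil attractants that fibroblasts and macrophages release early in inflammation. 3T3-L1 had 1 peak close to them, 88 bp wide at 90908312 to 90908399, which lay 2.42 kb beyond the 3′ end of Cxcl2 and 15.2 kb from Cxcl1. In C3H10T1/2 the nearest peak was the one at 90832587, 58.6 kb from Cxcl1 and 71.2 kb from Cxcl2. The 3T3-L1 peak is among the narrowest of its list, 11.8% of which is narrower, and with 1 list per line the difference at Cxcl2 has no replicate check.

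Counted by gene, all 7 had a peak within 100 kb in each line, where 13.9% of all protein-coding genes had one in 3T3-L1 and 12.1% in C3H10T1/2. Neighbours share these peaks, so the 7 genes are not 7 separate observations, and since the peak count chose the cluster nothing is read from the excess. The 3T3-L1 count was 7 peaks at each of the 7 genes. In C3H10T1/2 it was 6 at each gene from Cxcl5 to Cxcl15 and 4 at Cxcl1 and Cxcl2. Within 10 kb, the genes with a peak were Cxcl5, Cxcl15 and Cxcl2 in 3T3-L1, with 1, 4 and 1 peaks, and Cxcl5 and Cxcl15 in C3H10T1/2, with 2 and 3 peaks. In that window 3.96% of all protein-coding genes had a 3T3-L1 peak and 3.64% a C3H10T1/2 peak, inside the gene included.

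**Figure D3:**
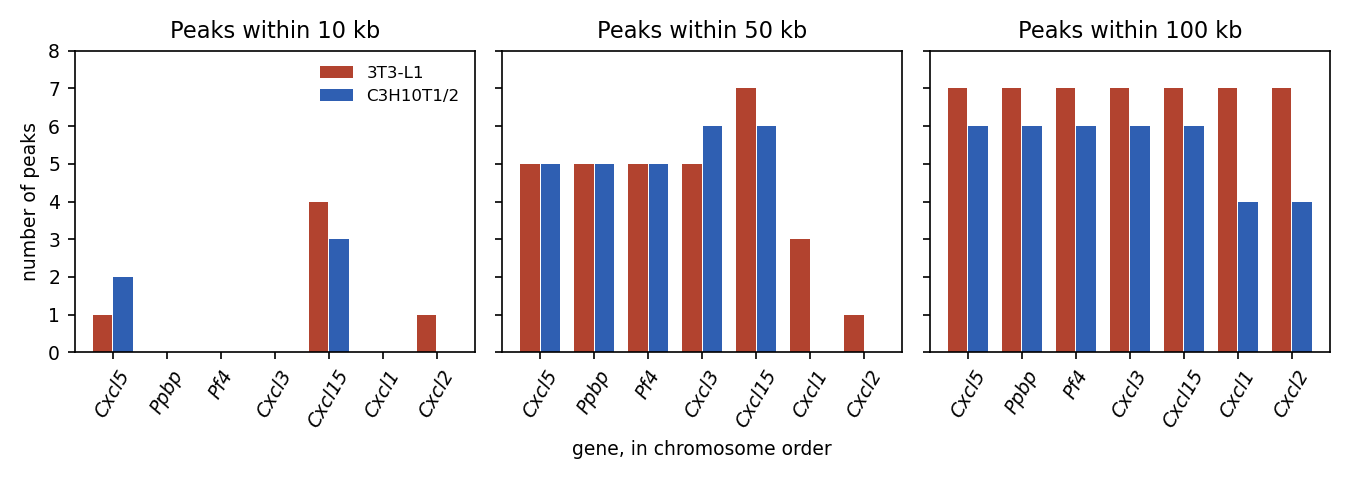
Number of peaks with centres within 10, 50 and 100 kb of each cluster gene, in chromosome order, for 3T3-L1 (left bars) and C3H10T1/2 (right bars). Within 10 kb the peaks belong to Cxcl5, Cxcl15 and, in 3T3-L1, Cxcl2, and within 50 kb Cxcl1 and Cxcl2 have 3 and 1 peaks in 3T3-L1 against 0 in C3H10T1/2.

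Sharing was described with the same caution, because density in both lines drew attention to the region. Of its 3T3-L1 peaks, 4 of 8 overlapped a C3H10T1/2 peak by at least 1 bp (50%, 95% exact Clopper-Pearson interval 15.7 to 84.3), beside 22.4% of the whole 3T3-L1 list. Of its C3H10T1/2 peaks, 4 of 6 overlapped a 3T3-L1 peak (66.7%, 22.3 to 95.7), beside 34.7% of the whole list. The whole 3T3-L1 list includes 272 peaks within 100 kb of Cpm on chromosome 10, where C3H10T1/2 had 0, and these lower its share of 22.4%. The intervals cover counting error alone and take the peaks as independent, although 4 of the 3T3-L1 peaks lay within 3.55 kb. Density chose the region, so no difference in sharing was tested. Genes with like counts in both lines had shared peaks too, as given below for Cdk14 and Pde4d. In 3 of the 4 pairs one peak contained the other, as in 65.1% of the 548 pairs of the lists, and the median offset of the centres was 5 bp in the cluster and 20 bp over all pairs.

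Widths lay on both sides of the median of each list. The 8 peaks of 3T3-L1 were 81 to 468 bp wide with a median of 178 bp, beside 144 bp for the list, and the 6 of C3H10T1/2 were 125 to 351 bp wide with a median of 215 bp, beside 184 bp. The 468 bp peak of the group at Cxcl15 was wider than 98.2% of the 3T3-L1 list, and the 351 bp peak of that group was wider than 94.7% of the C3H10T1/2 list. Unshared peaks included narrow ones (81 and 88 bp in 3T3-L1) and the wide 336 bp peak of 3T3-L1 at 90841401.

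**Figure D4:**
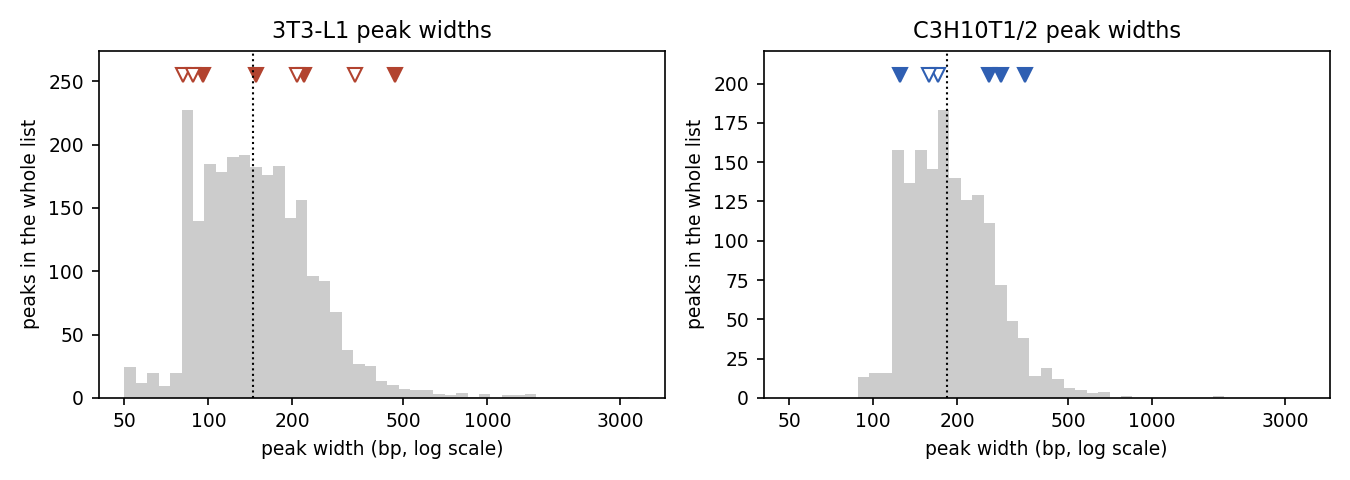
Widths of all 3T3-L1 peaks (left) and all C3H10T1/2 peaks (right) as grey histograms on a log axis in bp, with the median of each list dotted. Triangles mark the peaks of the Cxcl region, filled where they overlap a peak of the other line and open where they do not. The triangles spread on both sides of each median, from 81 to 468 bp in 3T3-L1 and from 125 to 351 bp in C3H10T1/2.

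Promoter sequence was available for 6 of the 7 genes in the RefSeq table for GRCm38.p6, as windows of 250 bases before to 50 after the gene start. None of the 6 windows was touched by a peak of either line. Over all 32851 windows of that table, 0.125% overlapped a 3T3-L1 peak and 0.146% a C3H10T1/2 peak, so a count of 0 among 6 carries little weight. The peak sequences themselves were not read here. The promoters below are shown because they are the only regulatory sequence of the cluster at hand to set against the peak positions, and they show 2 GATA motifs that no listed peak covered.

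The motifs searched on both strands were the GATA form AGATAA, its variants AGATAG or TGATAA, the further variant TGATAG and the AP-1 site TGANTCA. A run of 11 letters, GGGAATTTCCC, was added after the sequences had been seen, as the longest run common to Cxcl1, Cxcl2 and Cxcl3 before their starts, and it has the form of an NF-kB site. No match overlapped another. Capitals mark each match in the last 150 bases before the start of Cxcl1 (chr5:90891095-90891244), Cxcl2 (chr5:90903749-90903898) and Cxcl3 (chr5:90785951-90786100), and in 30 bases after the start of Pf4 (chr5:90772455-90772484), all on the plus strand, written 5′ to 3′.
Cxcl1: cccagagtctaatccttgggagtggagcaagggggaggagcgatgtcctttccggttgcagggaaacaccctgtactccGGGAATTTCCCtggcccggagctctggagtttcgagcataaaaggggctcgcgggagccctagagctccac
Cxcl2: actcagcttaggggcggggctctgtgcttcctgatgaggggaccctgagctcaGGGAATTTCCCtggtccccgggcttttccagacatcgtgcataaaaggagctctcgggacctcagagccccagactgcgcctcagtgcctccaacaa
Cxcl3: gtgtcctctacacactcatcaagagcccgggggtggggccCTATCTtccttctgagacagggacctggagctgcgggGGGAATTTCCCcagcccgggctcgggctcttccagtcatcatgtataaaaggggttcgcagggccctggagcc
Pf4: actgggcaggcagtgaAGATAAaacgtgct

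The GATA motif stood in 2 of the 6 windows, those of Cxcl3 and Pf4. It stood in 29.8% of all windows and in 25.8% of those of protein-coding genes, so 2 of 6 lies near the background. In Cxcl3 it was AGATAG on the minus strand, read as CTATCT above, with its first base at position -110 from the gene start. In Pf4 it was AGATAA, with its first base at position 37, which is after the start given by RefSeq. The nearest peak to the start of Cxcl3 lay 18.5 kb away in 3T3-L1 and 18.6 kb away in C3H10T1/2, and that of Pf4 lay 14.1 kb away in both.

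The run of 11 letters stood in the windows of Cxcl1, Cxcl2 and Cxcl3, at positions -71, -97 and -73. It was taken from these windows, so its presence there was fixed in advance. Over all 32851 windows it stood in 14 (0.0426%), these 3 included. The AP-1 motif stood in the window of Ppbp alone, at position -204. It stood in 7.81% of all windows and in 7.04% of those of protein-coding genes. A match describes these letters and is not a mapped site, and other forms of each motif were not searched.

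In the 100 kb window, the counts of the genes from Cxcl5 to Cxcl15 (7 in 3T3-L1, 6 in C3H10T1/2) were set against those of all other genes. No coding gene outside the region reached both counts, which are the cluster's own, and neither did Cxcl1 and Cxcl2. In 3T3-L1 at least 7 peaks were found at 24 genes (0.111% of all), of which 7 belong to the cluster. In C3H10T1/2 at least 6 were found at 12 genes (0.0555% of all), of which 5 belong to the cluster. By the smaller of both counts, Cdk14, with 6 peaks in 3T3-L1 and 7 in C3H10T1/2, equalled the genes from Cxcl5 to Cxcl15 at 6. Pde4d, with 7 and 5, stood above Cxcl1 and Cxcl2, whose smaller count was 4 and was reached by 7 genes outside the region. Cdk14 and Pde4d were named after their values were seen. They are 577 and 1302 kb long, so their windows are far larger than those of the cluster genes, which are 0.949 to 8.53 kb long. Among the 7013 coding genes outside the region that are no longer than Cxcl15, the smaller count reached at most 3, at 4 genes. The cluster was chosen by these same counts and its genes share their peaks, so nothing is read from its place in this order.

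Among places dense in 1 line, the splicing factor gene Cwc22 and its 100 kb flanks had 13 peaks of 3T3-L1 and 0 of C3H10T1/2, and the alcohol dehydrogenase gene Adh6b had 6 and 0. The centrosomal gene Sfi1 had 1 peak of 3T3-L1 and 20 of C3H10T1/2, all inside the gene. The Cxcl region, with 8 and 6 peaks and 4 shared sites, had peaks in both lists, as had Cdk14, Pde4d and Sfi1. Shared peaks were not particular to the Cxcl region. Within 100 kb, 3 of the 6 peaks of 3T3-L1 at Cdk14 and 3 of the 7 at Pde4d overlapped a C3H10T1/2 peak. The 3T3-L1 peak at Sfi1 was shared as well. The windows of Cwc22, Adh6b and Sfi1 are each shorter than the 346.6 kb of the Cxcl region, so these counts are not for equal lengths. All these regions were picked for their counts, so the contrast was not tested.

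Below the region both lines had a long stretch without peaks. The next 3T3-L1 peak below it lay 1499 kb from Cxcl5, and the next C3H10T1/2 peak 9149 kb from Cxcl5. Above it the next 3T3-L1 peak was 130 kb past the last one of the region, less than the median gap of 227 kb between neighbouring peaks of that list. 3T3-L1 had there a pair of peaks from 91038449 to 91038617 and from 91039465 to 91039680, the first 3.32 kb beyond Epgn, which encodes an EGF receptor ligand. They lay 133 and 134 kb from Cxcl2, just outside the 100 kb limit, whereas the outermost peak inside it was the one 2.42 kb from Cxcl2. Mthfd2l, the mitochondrial folate enzyme gene that enters the region above Cxcl2, had no peak nearest to it.

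In C3H10T1/2 the next peak above the cluster lay 1418 kb from Cxcl2, inside Cxcl9, which encodes an interferon-induced chemokine for T cells. Of 16 other CXC chemokine, receptor and scavenger receptor genes listed, 15 were annotated as protein-coding and Cxcl11 as a transcribed pseudogene, which was left out. Cxcl9 and its neighbour Cxcl10, also interferon-induced, were the 2 of 15 with a peak within 100 kb (13.3% in each line, beside 13.9% of all genes in 3T3-L1 and 12.1% in C3H10T1/2), so as a group the list stood near the background. Both genes were counted through the same peaks and are not separate observations.

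The Cxcl9 site was shared, from 92323428 to 92323651 in 3T3-L1 and from 92323426 to 92323649 in C3H10T1/2, each 224 bp wide and inside the gene (92321331 to 92328079). 3T3-L1 had another peak from 92332266 to 92332435, which lay between Cxcl9 and Cxcl10, 14.3 kb below Cxcl10. Cxcr1 and Cxcr2, whose products are receptors for several chemokines of the cluster, had no peak within 100 kb. The nearest to Cxcr1 was 3194 kb away in 3T3-L1 and 3268 kb away in C3H10T1/2, and the nearest to Cxcr2 was 3228 kb away in 3T3-L1 and 3301 kb away in C3H10T1/2. The nearest peak to Cxcl12, the chemokine by which stromal cells retain blood stem cells, lay 142 kb from the gene in both lines.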

How the data were processed

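Per the labels' protocols, chromatin (about 100 µg) was precipitated with 10 µg of a GATA2 antibody, and 100 to 150 ng of pooled DNA entered each ChIP library. The authors deposited 1 list of peak positions per line, with chromosome, start and end and no other column. The submitters' processing notes name the mm10 build and, without roles, MACS2, Bowtie2, CASAVA 1.8, bedtools and SAMtools. Peak threshold, use of input, pooling of libraries and later filtering are not given in the sources used here, and each could change which narrow peaks were listed.

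Positions were converted to count from 1. Genes came from the RefSeq table of GRCm38.p6 (mm10), chromosomes 1 to 19 and X, matched by symbol (7 of 7 members). A peak was placed by its centre, its nearest gene was the one with the least distance from centre to gene body, and a peak was shared when it overlapped the other list by at least 1 bp. Promoter windows came from the RefSeq table for the same build. Overlap and distance code was tested on simulated intervals. Python 3.11.15, NumPy 2.4.6, SciPy 1.17.1 and matplotlib 3.10.9 were used.

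The members, the gene list and the rules for naming genes (all members, all genes overlapping the region or nearest to a peak in it, and listed CXC genes with a peak within 100 kb) were chosen with earlier results of these data known. Cxcr1, Cxcr2 and Cxcl12, with no peak within 100 kb in either line, were named outside these rules, as were Epgn and Cpm. No tests were run, since the peaks chose the region and each line has 1 list.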

Additional observations from a re-analysis of the deposited data

How the results depend on the processing

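The counts rest on 1 list per line with no scores, so narrow peaks could not be judged by their strength. No paired analysis was possible because each line has a single list and no result comes from a test, and leaving out a library was not possible for the same reason. Of 40 values recomputed for the main results, 29 stayed within 1.5 times the reported value. In each line these 29 include the count of peaks nearest to a cluster gene with only the 7 cluster genes offered. That count could not move from 8 in 3T3-L1 and 6 in C3H10T1/2. Of 42 values recomputed for single genes, with windows of 10 and 50 kb or nearest genes in place of 100 kb, 12 stayed within it and 30 did not. Keeping peaks of at least the median width left 5 of 8 in 3T3-L1 and 3 of 6 in C3H10T1/2, and keeping those at or above the upper quartile (200 bp in 3T3-L1, 239 bp in C3H10T1/2) left 4 and 3. Within 10 kb, and equally when a peak counted for the nearest gene alone, 3 cluster genes had a peak in 3T3-L1 and 2 in C3H10T1/2, in place of 7 in each. The median gap between neighbouring peaks in the region was 2.68 kb in 3T3-L1 and 4.21 kb in C3H10T1/2, and 4.21 kb for sites merged over both lists. Of the other CXC genes, 1 had a peak within 10 kb in each line, in place of 2 within 100 kb. The 4 shared sites stayed 4 when the overlap had to cover 50% or more of each peak, and with centres within 1 kb the last 3T3-L1 peak of the group at Cxcl15 also counted, giving 5. Flanks of 50 and 200 kb gave 8 and 10 peaks in 3T3-L1 and 6 and 6 in C3H10T1/2. Without flanks, the cluster itself held 6 peaks in 3T3-L1 and 4 in C3H10T1/2.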
